A study of Rattus norvegicus with 6 samples.

Results

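Bone morphogenetic proteins (BMPs) are secreted ligands of the TGF-beta superfamily. They bind pairs of type I and type II receptor kinases, which phosphorylate the transcription factors SMAD1, SMAD5 and SMAD9. Together with SMAD4 these switch on target genes, among them the ID genes, whose products bind basic helix-loop-helix (bHLH) transcription factors and keep them from DNA. In the developing inner ear BMP4 marks the presumptive cristae, and the bHLH factor ATOH1, needed to form hair cells (HCs), belongs to the class of proteins that this system restrains.

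The genes described here were chosen by name. They are the ligands Bmp2, Bmp4 and Bmp7, the secreted antagonist Nog, the receptors Bmpr1a, Bmpr1b and Bmpr2, and the targets Id1, Id2 and Id3. All 10 symbols matched a single row each among the 32883 genes of the table, all 10 had counts, and all 10 were among the 16250 genes that entered the test.

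RNA was sequenced from the vestibular epithelium of 6 Long-Evans rats, each sample pooling the 2 utricles and 6 cristae of an animal, so that no value belongs to a single organ or cell type. The 3 STREP animals had received streptomycin, an aminoglycoside antibiotic that damages HCs, injected under the skin once a day (500 mg/kg, starting on postnatal day 21 and lasting 6 weeks), and the 3 Control animals had received the vehicle PBS on the same schedule. Tissue was collected on the last day of treatment, and animals 1 and 2 of each group were males and animal 3 a female. The comparison asks which of these transcripts differ after the exposure.

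Depth was 48568191 to 59906048 counts in Control and 29333584 to 33744909 in STREP libraries, so it separated the groups, and levels are therefore given as normalised counts (counts divided by the size factor of the library). All 8 HC markers and all 8 supporting cell markers examined had counts, as the labelled tissue requires. Cell type markers were read in 9 lists, the HC and supporting cell lists among them, and some moved with treatment. Otog, a supporting cell marker, was higher without overlap (log2 fold change 0.50) but missed the threshold (adjusted p = 0.194). Of 6 Schwann cell markers all 6 lay below 0 on the log2 scale and 1, Prx, was called lower, with summed levels of 255223 to 351651 in Control and 135319 to 282473 in STREP animals. The 5 dark cell markers summed to 46007 to 51489 in Control and 31988 to 38877 in STREP animals, without overlap. That sum was mostly Atp1b2 and Slc12a2, and Slc12a2 had an adjusted p below 0.05 within a fold change of 1.5. The groups overlapped for Kcne1 (-0.79), Kcnq1 (-0.41) and Bsnd (0.05). The 7 endothelial markers with counts did not separate the groups, at 12812 to 13586 and 11820 to 15555. Of 4 melanocyte markers with counts 3 lay below 0 (Tyr -1.06, Mlana -0.96 and Tyrp1 -1.25, adjusted p of 0.219, 0.168 and 0.451) and the median was -1.01, while their sum, mostly Pmel, was 25276 to 26079 in Control and 25708 to 38349 in STREP animals. Among 6 neuronal markers 4 lay below 0 and 2 above, with a median of -0.10. Tubb3 was called higher (1.28, adjusted p = 0.0182), while the neuronal sums overlapped, at 4159 to 4643 in Control and 3992 to 4253 in STREP animals. Among 6 macrophage markers C1qa (0.45) and C1qb (0.47) were higher without overlap but missed the threshold (adjusted p = 0.394 and 0.274). Of 8 stromal markers 5 lay below 0 and 3 above, with a median of -0.05 and 0 called. Postn (1.24, adjusted p = 0.342) was the 1 stromal marker without overlap, and it was higher. The part of these lists in the results below was not tested, except where a value relative to them is given.

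The upstream sequences of the 3 target genes are shown first, because ID genes are the transcriptional readout of the pathway. Each window holds the 250 bases before the gene start in RefSeq, assembly GRCr8, read 5′ to 3′ on the strand of the gene. Capitals mark the motifs searched for, on either strand.

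Id1, chr3:161671314-161671563, plus strand: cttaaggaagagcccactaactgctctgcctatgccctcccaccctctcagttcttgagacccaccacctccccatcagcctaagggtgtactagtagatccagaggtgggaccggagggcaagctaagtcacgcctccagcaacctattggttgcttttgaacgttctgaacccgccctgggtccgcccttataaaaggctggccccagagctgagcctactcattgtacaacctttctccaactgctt
Id2, chr6:47470996-47471245, minus strand: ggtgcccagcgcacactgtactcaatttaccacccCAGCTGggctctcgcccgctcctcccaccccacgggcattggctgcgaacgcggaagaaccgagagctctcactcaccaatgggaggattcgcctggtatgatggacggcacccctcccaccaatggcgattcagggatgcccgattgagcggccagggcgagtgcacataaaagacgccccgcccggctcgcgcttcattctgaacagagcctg
Id3, chr5:153656041-153656290, plus strand: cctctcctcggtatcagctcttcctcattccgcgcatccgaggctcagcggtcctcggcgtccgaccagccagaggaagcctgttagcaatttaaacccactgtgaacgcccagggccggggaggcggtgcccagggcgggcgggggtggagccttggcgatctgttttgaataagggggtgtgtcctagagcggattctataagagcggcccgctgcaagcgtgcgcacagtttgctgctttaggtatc

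The motifs, none of which contains another, were GGCGCC, a GC-rich sequence bound by BMP SMADs, CAGAC, the short SMAD element, the E-boxes CAGCTG and CAGATG, and TGACGTCA, the cAMP and ATF element. Windows were at hand for 7 of the 10 genes. An ATG lay 6 bases after the gene start of Bmpr1a and 10 bases after that of Bmpr2. Whether the windows of these receptors lie inside the transcript was not checked. The Id1 and Id3 windows held none of the 5 motifs, and that of Id2 held 1 CAGCTG, starting 215 bases before the gene start. CAGCTG also lay upstream of Bmp4, 2 of 7 windows, against 12.0% of all 33469 windows. GGCGCC occurred in the Nog window alone, against 8.69% of all windows, and CAGAC upstream of Bmp4 and Nog, against 42.9%. CAGATG and TGACGTCA occurred in 0 of the 7 windows, against 14.0% and 1.59% of all. These matches describe letters in a short window only, and they say nothing of more distant elements.

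Among the 10 genes, 1 fell under streptomycin, the ligand Bmp2. A gene was called when its DESeq2 adjusted p-value over all genes was below 0.05 and its fold change exceeded 1.5 in either direction. Bmp2 was 1 of 10 genes called lower, where 1.37% of all tested genes were, and 0 of 10 were called higher, where 1.87% of all were. By edgeR 1 was likewise called lower and 0 higher. Bmp2 was also the 1 gene of the 10 with an unadjusted p-value below 0.05, against 12.2% of all tested genes. The groups did not overlap for 2 of the 10, Bmp2 and Id3, against 17.8% of all tested genes, a share close to that background. The median log2 fold change was -0.13 over the 10 genes and 0.0069 over all tested genes. The remaining members, by contrast with Bmp2, had log2 fold changes between -0.55 and 0.43.

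**Figure D1:**
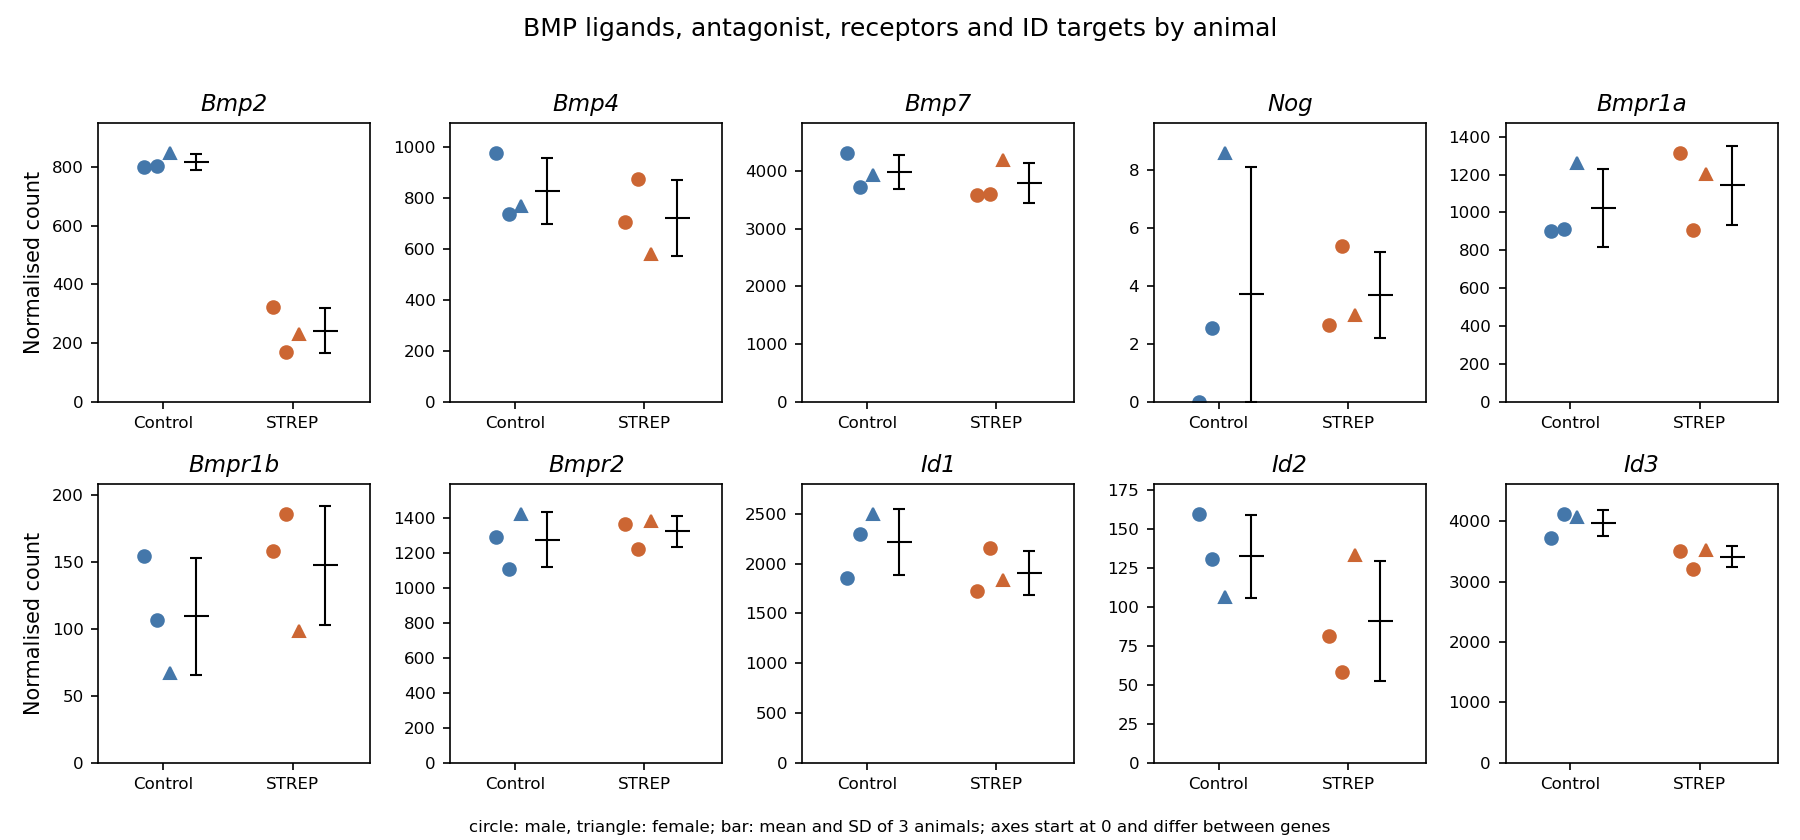
Normalised counts (y axis, starting at 0 and scaled per gene) of the 10 genes in 3 Control and 3 STREP animals, with circles for males, triangles for females and bars for the mean and SD (cut at 0 for Nog). Bmp2 lies at 799 to 848 in Control and at 171 to 324 in STREP animals, whereas the groups overlap for 8 of the genes.

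Bmp2 encodes a ligand known from transcriptomic work to be enriched in type I HCs, the class enclosed by calyx afferents. It had 799, 802 and 848 normalised counts in Control animals 1, 2 and 3 (1302, 944 and 986 counts as deposited). In STREP animals 1, 2 and 3 it had 324, 171 and 232 (243, 158 and 155 counts). Every STREP value lay below every Control value, and the STREP animals spread more widely around their mean. The means were 816 ± 27.3 and 242 ± 76.97 normalised counts (SD, n = 3), so that STREP animals retained 29.6% of the Control level. The log2 fold change was -1.76 ± 0.25 (SE, DESeq2 adjusted p = 1.30e-09), with a 95% interval from -2.25 to -1.26. In a bulk sample fewer cells of a type and less RNA per cell cannot be told apart. The difference was -1.70 on the log2 scale among males and -1.87 between the female of each group, a single pair of animals.

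Bmp2 fell by more than the 8 HC markers chosen here did. The 8 markers (Myo7a, Myo6, Pou4f3, Otof, Gfi1, Espn, Lhfpl5 and Slc17a8) had log2 fold changes from -0.49 to 1.20 with a median of -0.19, and 7 of the 8 lay below 0. Myo7a (-0.49, adjusted p = 0.0162) and Lhfpl5 (-0.45, adjusted p = 0.0161) stayed within a fold change of 1.5 despite adjusted p-values below 0.05, and 1, the transcription factor Gfi1, was called higher at 1.20. Their summed level was 79977 to 84738 normalised counts in Control and 69263 to 83340 in STREP animals. Relative to the mean log2 level of these markers, Bmp2 stood at -3.16, -2.97 and -3.07 in Control animals 1, 2 and 3 and at -4.22, -5.20 and -4.91 in STREP animals. The difference was -1.71 on the log2 scale, lower in 3 of 3 STREP animals. An exact permutation test over animals, two-sided, gave p = 0.1, below which 3 against 3 cannot go. Without Gfi1, a list changed after the values were seen, the difference was -1.52. The paper lists Bmp2 among genes, most of them selective for HCs, that were lower in all of its exposure models. A fall beyond that of the 8 markers is therefore not shown to be particular to Bmp2. Whether Bmp2 fell by more than those other genes, or whether the 8 markers follow type I HCs, was not tested.

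**Figure D2:**
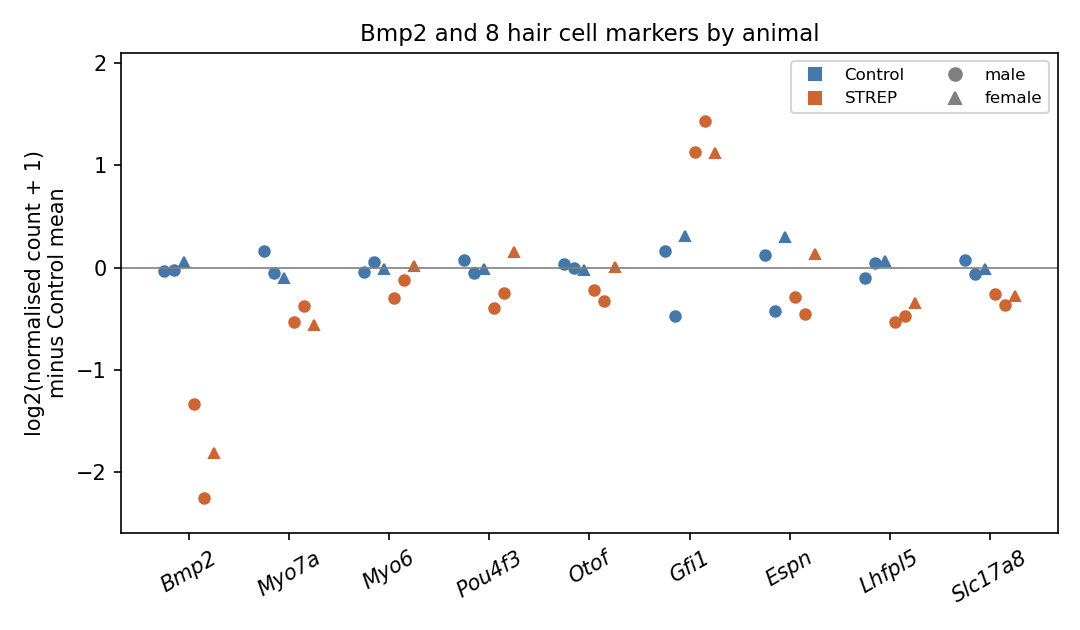
Bmp2 and the 8 HC markers (x axis) in each animal, as log2(normalised count + 1) minus the Control mean (y axis), coloured by group and shaped by sex. The STREP points of Bmp2 lie between -2.25 and -1.33, below those of every HC marker, and those of Gfi1 lie above 1.

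The other ligands stayed nearer to their Control level. Bmp4, the ligand that patterns the cristae, had 975, 737 and 766 normalised counts in Control and 706, 875 and 580 in STREP animals 1, 2 and 3. These ranges overlapped, and the log2 fold change was -0.20 ± 0.22 (adjusted p = 0.848, 95% interval -0.62 to 0.23). The interval holds both no change and a fall just beyond 1.5-fold. Bmp7, which can pair with BMP2 or BMP4 in heterodimers, had 4314, 3720 and 3927 normalised counts in Control and 3588, 3605 and 4196 in STREP animals. The ranges overlapped here too, with a log2 fold change of -0.07 ± 0.14 (adjusted p = 0.944) and an interval of -0.34 to 0.20 that leaves out a change as large as 1.5-fold. The log2 ratio of Bmp2 to Bmp4 normalised counts, not corrected for gene length, went from -0.29, 0.12 and 0.15 in Control to -1.12, -2.35 and -1.32 in STREP animals. The Bmp2 to Bmp7 ratio moved alike, by -1.73 on the log2 scale. Both ratios were lower in all STREP animals than in any Control animal, and they are given as descriptions because the pairs were formed after the values were seen.

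Nog encodes noggin, an antagonist that sequesters BMP ligands outside the cell. It was close to absent, with 0, 3 and 10 counts in Control and 2, 5 and 2 counts in STREP libraries. With a floor of 3 counts per library, the number that a count of 0 still allows, 3 of the 6 libraries were below it. No fold change is read from these counts, and a difference in Nog was not detectable at this depth.

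The receptors did not differ beyond the variation among animals. The type I receptor Bmpr1a had 899.7, 910.4 and 1262 normalised counts in Control and 1314, 908 and 1206 in STREP animals, ranges that overlapped widely. Its log2 fold change was 0.16 ± 0.21 (adjusted p = 0.896, 95% interval -0.26 to 0.58). Bmpr1b, the other type I receptor, was measured with less precision, at 155, 106 and 67.1 in Control and 158, 186 and 98.7 in STREP animals. The female had the lowest value in each group, and the log2 fold change of 0.43 ± 0.43 (adjusted p = 0.818) had an interval from -0.41 to 1.27, wide enough to hold a change of 1.5-fold. Bmpr2, the type II receptor, had 1291, 1108 and 1419.9 normalised counts in Control and 1363, 1218 and 1382 in STREP animals. The STREP values lay inside the Control range, and the log2 fold change of 0.05 ± 0.16 (adjusted p = 0.973) had an interval of -0.27 to 0.38.

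The ID targets Id1, Id2 and Id3 all had lower means in STREP animals, but none was called. Id1, an inhibitor of bHLH factors abundant in vessel cells, had 1856, 2301 and 2497 normalised counts in Control and 1728, 2152 and 1839.96 in STREP animals. The groups overlapped, with a log2 fold change of -0.22 ± 0.17 (adjusted p = 0.724, 95% interval -0.55 to 0.12). Id3, its close relative, had 3723, 4119.5 and 4076 in Control and 3515, 3208 and 3518 in STREP animals. All STREP values of Id3 lay below all Control values, by a small margin, since STREP animals held 85.9% of the Control mean. The log2 fold change was -0.22 ± 0.13 and missed the threshold (adjusted p = 0.517, 95% interval -0.47 to 0.03). For Id1 and Id3 the intervals leave out a fall as large as 1.5-fold. Fewer counts lay behind Id2, which had 159.6, 131 and 107 normalised counts in Control and 81.2, 58.3 and 133 in STREP animals. Both STREP males lay below all Control animals and the STREP female above both of the lower Control values. The log2 fold change of Id2 was -0.55 ± 0.42 (adjusted p = 0.709, 95% interval -1.38 to 0.28), and the interval holds both no change and a fall beyond 1.5-fold.

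Among the members other than Nog, Id2 had the change that differed most between the sexes, at -1.06 among males and 0.32 between the females on the log2 scale. The interaction of sex and treatment, female minus male, was 1.38 ± 0.99 (DESeq2 adjusted p = 0.999 over all genes). The other 8 members with an adjusted p-value also stood at 0.999, and Nog had none. With 1 female per group the female value rests on a single pair of animals. Id1 and Id3 were also read relative to the endothelial markers Cdh5, Kdr, Flt1, Tek, Emcn, Esam and Cldn5. Relative to them Id1 differed by -0.21 on the log2 scale (exact two-sided permutation p = 0.6) and Id3 by -0.22 (exact two-sided permutation p = 0.2), where 3 against 3 animals cannot go below 0.1. Id1 was 0.13, 0.39 and 0.54 in Control and -0.27, 0.49 and 0.20 in STREP animals on this scale, and the groups overlapped. Id3 was 1.13, 1.23 and 1.25 in Control and 0.75, 1.07 and 1.13 in STREP animals, and the highest STREP value reached just above the lowest Control value.

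**Figure D3:**
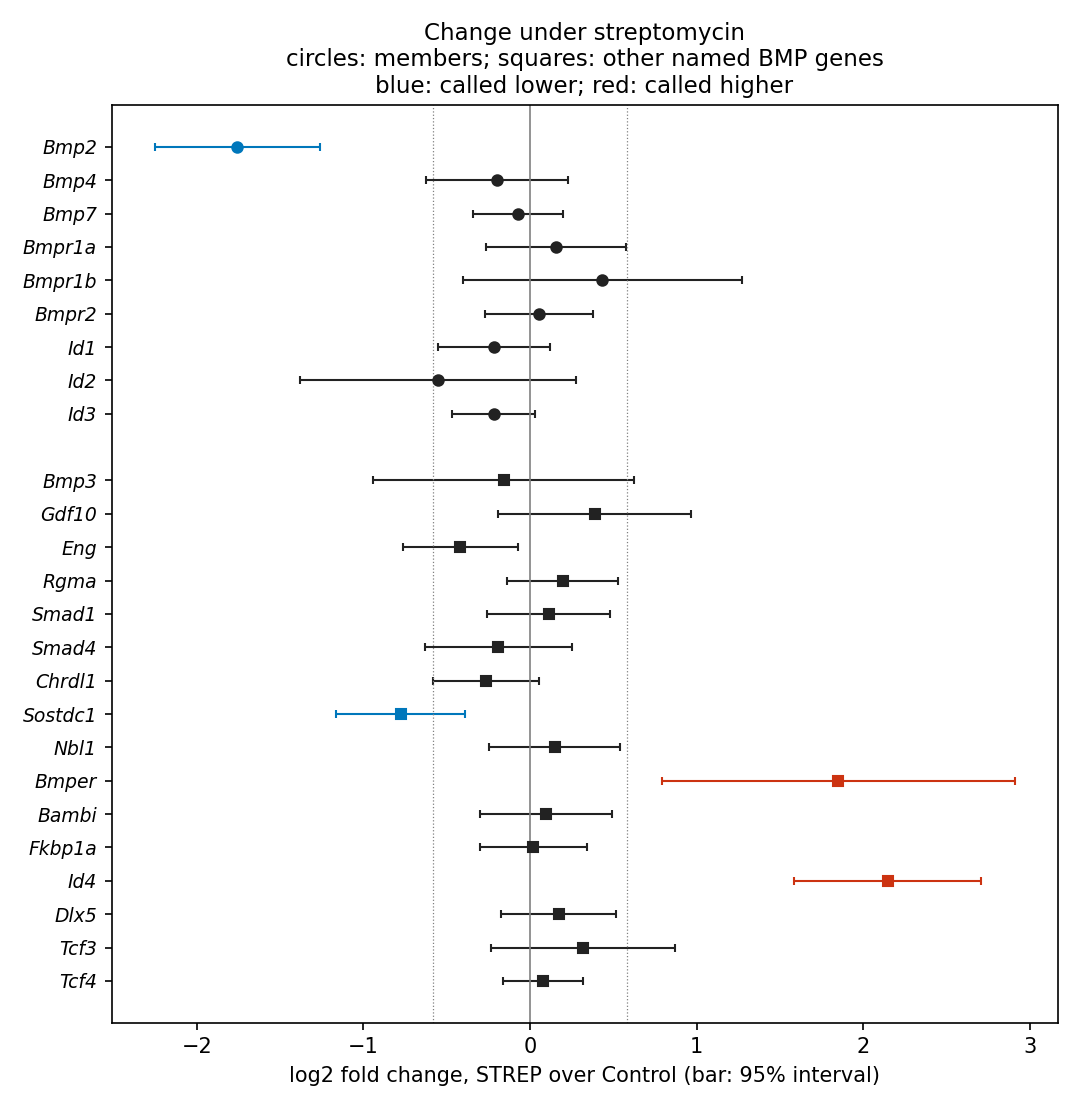
Log2 fold change, STREP over Control (x axis, with the 95% interval as a bar), of 9 of the 10 genes (circles, Nog left out for its low counts) and of 16 other named BMP pathway genes (squares), with dotted lines at a fold change of 1.5. Bmp2 and Sostdc1 were called lower, Id4 and Bmper were called higher, and 0 lies inside the bars of the 8 other circles.

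The wider pathway was read from a list of 61 other genes in 7 roles. Of these, 57 had counts and 53 were tested, with 17 below and 36 above 0 and a median log2 fold change of 0.11. The list held 1 gene called lower, Sostdc1, and 2 called higher, Id4 and Bmper, beside the shares of 1.37% and 1.87% among all genes. An unadjusted p-value below 0.05 was reached by 8 of the 53, against 12.2% of all genes, and 7 of the 53 did not overlap between groups, against 17.8%.

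The fourth ID gene, Id4, rose while the other members of its family did not pass the test. ID4 shares the helix-loop-helix domain of the family and is known for roles in neural and glial precursors. It had 2897, 1318 and 2583 normalised counts in Control and 8032, 7793 and 14266 in STREP animals 1, 2 and 3. Every STREP value was above every Control value, and the STREP female had the highest. The means were 2266 ± 836 and 10031 ± 3670 (SD, n = 3). On the log2 scale this was a difference of 2.15 ± 0.29 (DESeq2, SE, adjusted p = 2.35e-11). The call was kept in all other fits run, with log2 fold changes from 1.80 without STREP replicate 3 to 2.36 without Control replicate 1. Within animals the log2 ratio of Id4 to Id1 was 0.64, -0.80 and 0.05 in Control and 2.22, 1.86 and 2.95 in STREP animals, a shift of 2.38, and the ratio to Id3 shifted by 2.39, both given as descriptions without a test. STREP animal 3 also had the highest summed level of the 8 supporting cell markers, 1119180 normalised counts, against 642222 to 712991 in the other STREP animals and 549287 to 688143 in Control animals. Otog alone made up 729507 of the sum in STREP animal 3. Over both groups 5 of these markers lay above 0 and 3 below, with 0 called. STREP animal 3 also had the highest stromal sum, 1487680 against 594087 to 1160010 in the other animals of both groups. The same held for the melanocyte sum, 38349 against 25276 to 29546, but not for the remaining lists. The part of these lists in the Id4 values was not tested. The RefSeq gene start of Id4 coincides with the first base of an ATG, so its upstream window may lie inside the transcript and is not shown.

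**Figure D4:**
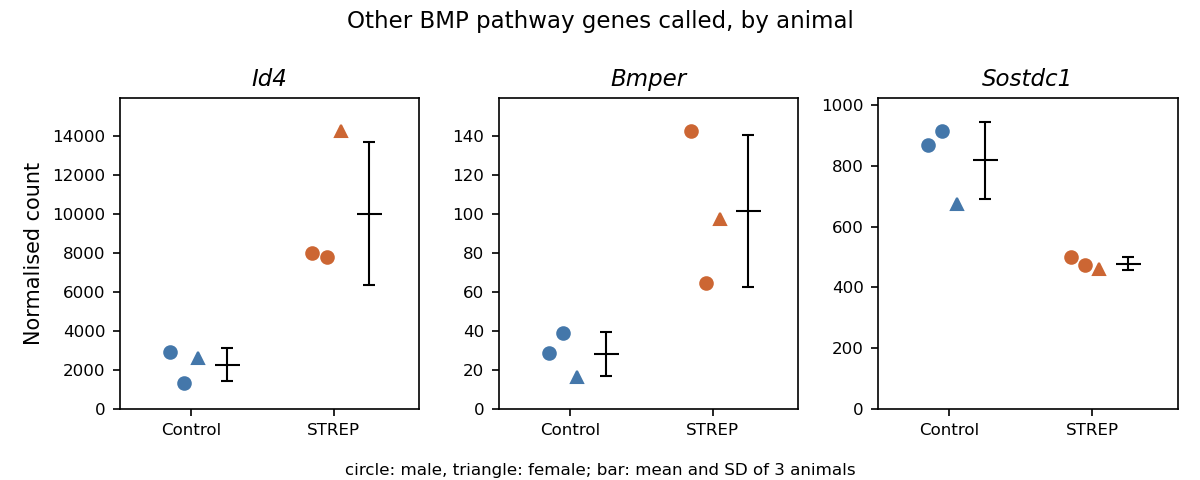
Normalised counts (y axis, starting at 0) of Id4, Bmper and Sostdc1 in 3 Control and 3 STREP animals, with circles for males, triangles for females and bars for the mean and SD. The groups do not overlap for any of the 3 genes.

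Bmper and Sostdc1 encode secreted proteins that bind BMPs. Bmper had 28.8, 39.1 and 16.3 normalised counts in Control and 142, 64.8 and 97.2 in STREP animals. The values did not overlap, and the log2 fold change was 1.85 ± 0.54 (adjusted p = 0.0213). Few counts lay behind it, and the call was lost by edgeR (adjusted p = 0.143 with a count filter, over a range of 0.0156 to 0.384 among all alternatives). The call was also lost with library totals as size factors, with the fold threshold inside the Wald test and among males alone. The same held without Control replicate 1 or 3 or STREP replicate 1 or 3. Sostdc1 had 867, 914 and 675 normalised counts in Control and 501, 472 and 461 in STREP animals. It too did not overlap between groups, with a log2 fold change of -0.78 ± 0.20 (adjusted p = 0.00406). It lost its call by edgeR with a count filter (adjusted p = 0.0542, over a range of 0.000448 to 0.119 among all alternatives) and with library totals as size factors. Its call was also lost with the fold threshold inside the Wald test and without Control replicate 1 or 2. Among 18 listed antagonists and modulators, these were the ones called, and Chrdl1 (-0.26, adjusted p = 0.561) and Nbl1 (0.15, adjusted p = 0.897) were not.

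No other gene of the list was called by DESeq2 or by edgeR, while 5 more, Eng, Fstl3, Tll2, Dlx3 and Bmp15, named here after their values were seen, had an unadjusted p-value below 0.05. Among other ligands 6 of 12 were tested, with a median log2 fold change of 0.26, and those with the highest mean counts (not corrected for gene length), Bmp3 and Gdf10, stood at -0.16 and 0.39. Of 7 other receptors and co-receptors tested, Eng, the endothelial co-receptor endoglin, had the lowest adjusted p-value at 0.229, with 2808, 2982 and 2572 normalised counts in Control and 2559, 1758 and 1945 in STREP animals. Without STREP replicate 1, Eng was called lower (-0.59, adjusted p = 0.0132). Rgma, a BMP co-receptor, stood at 0.19. The transducers Smad1 (0.11) and Smad4 (-0.19), the decoy receptor Bambi (0.09), the receptor-binding Fkbp1a (0.02) and the target Dlx5 (0.17) did not pass the test. The bHLH partners of ID proteins, Tcf3 (0.32) and Tcf4 (0.08), were not called either.

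Profiles like that of Bmp2 were sought among 12131 genes with a mean of at least 100 normalised counts, by the root mean square difference of log2 values centred on the Control mean over the 6 animals. The nearest was Slc27a2, a very long-chain acyl-CoA synthetase, at a distance of 0.25, whose log2 fold change was -1.56. Tnnc1, the slow muscle and cardiac troponin C, followed at 0.29 with -1.83, and Pcnx2 at 0.29 with -1.66. These 3 distances are descriptions, and they rest in large part on the difference between groups that the genes share.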

How the data were processed

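Gene expression was measured by RNA-seq (SMARTseq2 libraries, oligo-dT primed, paired-end) in 6 animals. The authors aligned reads to Rnor6.0 with STAR 2.5.3a and deposited RSEM expected counts per gene, whole numbers without scaling (RSEM 1.3.0 per the labels' processing notes). Estimated counts share reads among similar genes. Depth was 29333584 to 59906048 counts per library. The floor of 3 counts covers counting error only, since PCR copies of a molecule were not told apart.

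Groups came from the treatment label. Replicates were numbered by accession and pair no animals, and all libraries carry 1 batch label. The sample titles of STREP replicates 1 and 2 share a code that no other titles share, and the labels do not say what it marks. DESeq2 1.42.0 in R 4.3.3 was fitted to all genes with group as the factor, median-of-ratios size factors, Wald tests, independent filtering and Benjamini-Hochberg adjustment. Intervals of fold changes are Wald intervals at 95%. Values relative to markers used log2(normalised count + 1). Alternatives were edgeR 4.0.16 quasi-likelihood tests, other scalings, filters, sex, males alone, thinned libraries, other thresholds and leaving out each animal. The scripts were tested on simulated counts. Gene lengths were not used. Ratios between genes, values relative to markers, sums over marker lists and names chosen by mean count are therefore not corrected for gene length.

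The members, lists and tests were chosen with earlier results of these data known. Genes named besides the members were those of the wider list with an adjusted p below 0.05 and the 2 of each role with the highest mean normalised count, uncorrected for length. Eng without 1 animal was singled out after its values were seen. Upstream sequences are from RefSeq (GRCr8), another build than that of the counts, matched by symbol, and Bmp2, Bmp7 and Bmpr1b had no entry.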

Additional observations from a re-analysis of the deposited data

How the results depend on the processing

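Bmp2 kept its direction and its call in every fit run, from -2.03 to -1.56 on the log2 scale with each animal left out and from -1.78 to -1.70 under other settings (largest adjusted p = 0.00471), and 0 other members gained a call. Of 85 member values under other settings 85 kept direction and call, and of 59 with 1 animal left out 56 did. The 3 that changed sign, all uncalled, were Bmpr2 (-0.038) without Control replicate 2 and Nog without Control replicate 1 (-0.59) or 2 (-0.20), within ranges of -0.038 to 0.14 and -0.59 to 1.58. The fitted Nog values rest on 0 to 10 counts per library and are listed for their sign only, with no fold change to be read from them. Left-out ranges of the values relative to markers were -1.99 to -1.50 for Bmp2, -0.39 to -0.0077 for Id1 and -0.29 to -0.10 for Id3.

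Over all genes 304 were called higher and 223 lower. These counts were 138 and 126 by edgeR with a count filter, 160 and 135 without, 170 and 139 with library totals as size factors, and 47 and 35 with the fold threshold inside the Wald test. With each animal left out they ran from 222 to 322 and from 178 to 251. Of the wider list, 1 gene, Id4, was called higher instead of 2 by edgeR with or without a filter, with library totals, among males alone and with the threshold inside the test. For genes of that list called lower, 0 remained by edgeR with a filter, with library totals and with the threshold inside the test, and these counts ran from 1 to 2 and from 0 to 2 with each animal left out. At this depth a difference in Nog was not detectable, and the intervals of Id2, Bmpr1b and Bmp4 were too wide to exclude a 1.5-fold change.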
